A study of Mus musculus with 6 samples.

Results

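Mesothelial-like cells of the mouse aortic root were described here from 123 of 17878 lineage-negative cells. Members were chosen by their own counts: a cell belonged when its unique molecular identifiers (UMIs, each standing for 1 captured RNA molecule) of Upk3b and Msln summed to at least 5. Upk3b encodes uroplakin 3B and Msln encodes mesothelin, a membrane-anchored surface glycoprotein, and both are standard markers of mesothelium. The comparison class comprised 13405 stromal cells with at least 10 UMIs of Dcn, which encodes the matrix proteoglycan decorin. A cell entered either class only if it had 1000 UMIs or more, 500 genes or more, and no more than 10% of its UMIs in mitochondrially encoded genes.

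Mesothelium is the single layer of flattened cells that lines the pericardial, pleural and peritoneal cavities. It carries keratins and tight junctions like an epithelium, has apical microvilli under a lubricating glycocalyx, and moves water and ions across the cavity wall, but it comes from mesoderm and shares transcription factors such as WT1 with the embryonic epicardium. In injury, mesothelial cells can lose keratins and junctions and take on features of fibroblasts or contractile cells.

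The study examined SMC-directed Klf4 deletion in a mouse model of Marfan syndrome, in which Fbn1, the fibrillin-1 gene, carries the C1041G missense allele on 1 chromosome. Klf4 encodes a Krüppel-like transcription factor. The 3 groups were littermate controls with wild-type Klf4, Fbn1 C1041G/+ Marfan mice with wild-type Klf4, and Fbn1 C1041G/+ Marfan mice with floxed Klf4 in which deletion had been induced. All animals were male and 24 weeks old. Per the labels, aortic roots of 4 animals per group were pooled, dissociated and sorted by tdTomato, the reporter of traced smooth muscle cells (SMCs). Each genotype therefore gave 1 lineage-negative and 1 lineage-positive library. The labels used here do not name the Cre driver, and the cells described are lineage-negative, so the label Klf4-floxed names the animal and not a deletion in these cells.

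The kept cells held 46515200 UMIs in the control lineage-negative library, 79583816 in the Marfan one and 69146882 in the one labelled Klf4-floxed. With 1 library per group there were no replicates, and every difference below is between libraries, with no test. Levels are UMI counts scaled to the total of the class (CPM), and the 95% intervals given cover counting error only. The cell barcodes shared between pairs of lineage-negative libraries numbered 9, 7 and 10 among kept cells. None of them was a mesothelial-like cell in both libraries of its pair. More mesothelial cells in the tissue and more of the outer root surface in a dissection cannot be told apart.

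Mesothelial-like cells were rare in all 3 libraries and rarest in control. They made up 12 of 4510 kept cells in control, a share of 0.266% with an exact Clopper-Pearson 95% interval from 0.138% to 0.464%. In Marfan they were 65 of 7105 cells, or 0.915% (0.707% to 1.16%). In Klf4-floxed Marfan they were 46 of 6263 cells, or 0.734% (0.538% to 0.978%). The control interval lay below both others, which overlapped each other. With the gate on Upk1b, Lrrn4, Krt19 and Nkain4 in place of Upk3b and Msln the shares were 0.532% (0.341% to 0.791%), 1.13% (0.894% to 1.40%) and 0.878% (0.662% to 1.14%). The control interval then lay below that of Marfan but overlapped that of Klf4-floxed Marfan. Set against stromal cells, there were 3.19 mesothelial-like cells per 1000 in control, 13.4 in Marfan and 9.59 in Klf4-floxed Marfan. The stromal share of kept cells itself ran from 83.5% in control to 68.1% in Marfan and 76.6% in Klf4-floxed Marfan. The lineage-positive libraries held 0 such cells among the 5432, 12100 and 6349 kept cells of control, Marfan and Klf4-floxed Marfan, which allow shares of up to 0.0552%, 0.0248% and 0.0473% by the limit of 3 counts of the total. The Clopper-Pearson upper limits were 0.0679%, 0.0305% and 0.0581%.

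The gate counts fell into a wide upper range with a thin lower edge. The lowest, median and highest sums of Upk3b and Msln per member were 17, 88 and 255 UMIs for control, 5, 45 and 251 for Marfan, and 5, 53.5 and 154 for Klf4-floxed Marfan. Of the 123 members, 103 had at least 15 UMIs, 13 had 7 to 14 and 7 had 5 or 6. Just outside the gate, 8 cells had 3 or 4 UMIs and 140 had 1 or 2. A second set of mesothelial markers that the gate did not use, Upk1b, Lrrn4, Krt19 and Nkain4, reached at least 5 UMIs in 6 of the 7 cells just inside and in 4 of the 8 just outside. It did so in 2 of the 140 cells with 1 or 2 UMIs. Control had no cell from 3 to 14 UMIs, whereas both Marfan libraries had cells on either side of the gate.

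**Figure D1:**
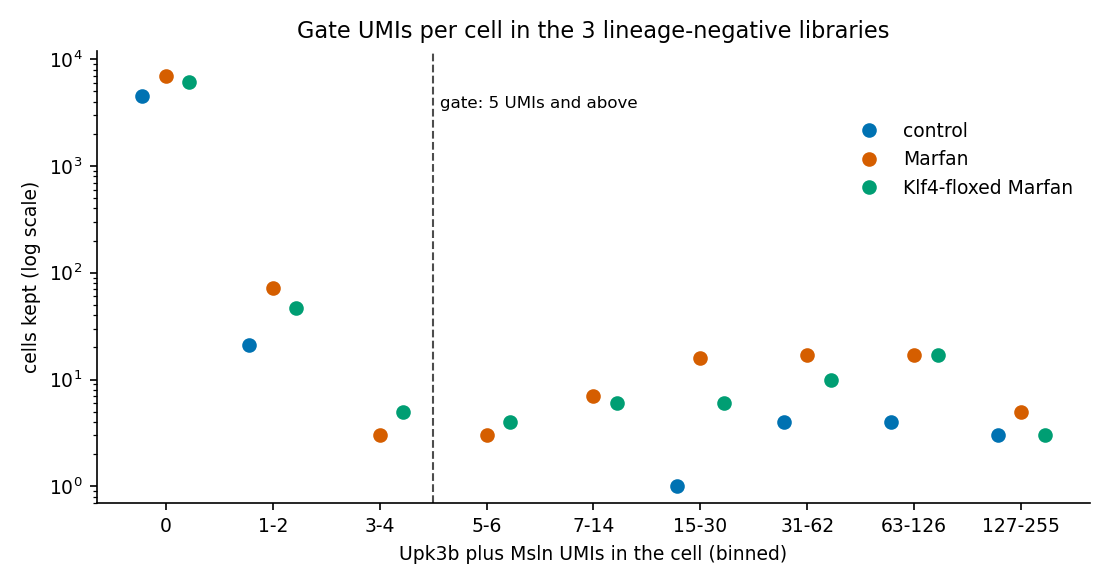
Number of kept cells (log axis) by binned UMIs of Upk3b plus Msln in each of the 3 lineage-negative libraries, with a dashed line at the gate of 5 UMIs. Nearly all cells hold 0 UMIs, few lie near the gate in the Marfan libraries and none in control, and 103 of the 123 members lie at 15 or above.

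The label mesothelial held against the markers. The 10 mesothelial markers, Upk3b and Msln included, summed to 11563 CPM in the control members, 7415 in Marfan and 9767 in Klf4-floxed Marfan, against 7.53 to 12.8 CPM in stromal cells. The gate fixed part of these sums, through Upk3b at 2104 to 3455 CPM and Msln at 984 to 1795 CPM in the members. A gate on the 4 other markers alone held 122 of the 123 members, and 76.7% of the 159 cells it chose were members. Endothelial markers summed to 399, 127 and 165 CPM in the members of control, Marfan and Klf4-floxed Marfan, above the 54.9 to 62.2 CPM of stromal cells. That sum came mostly from Kdr, a receptor of vascular endothelial growth factor, while the endothelial markers Cdh5, Tie1 and Vwf were at 0. All 6 lymphocyte markers were at 0 in the members. Macrophage markers summed to 83.5, 106 and 152 CPM, below the 295 to 434 CPM of stromal cells. Of the other epithelial markers Epcam, Krt5, Cldn7, Sftpc and Scgb1a1 were at 0, and the sums of 79.1 to 162 CPM came mostly from Krt14. Cardiomyocyte markers summed to 0, 37.4 and 15.3 CPM, against 94.6 to 172 CPM in stromal cells.

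Members also held RNA of stromal genes. The Dcn cutoff of the stromal class was passed by 120 of the 123. Dcn itself stood at 5501 CPM in the control members, 3182 in Marfan and 4598 in Klf4-floxed Marfan, against 17835, 14458 and 16841 CPM in stromal cells. No member passed a gate of 10 UMIs of the C1q genes (macrophages) or of 3 UMIs of Pecam1 plus Cdh5 (endothelium). A gate of 10 UMIs of Myh11 plus Acta2 was passed by 18 members, all through Acta2, the smooth muscle actin gene, and none through Myh11. Those 18 were 12 Marfan and 6 Klf4-floxed Marfan cells. The added feature TDT, named like the reporter, had a UMI in 7 members, all of the Marfan library.

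The 15 genes furthest above stromal cells included 4 keratins (Krt7, Krt19, Krt14 and Krt8), the mucin Muc16 and the uroplakin Upk1b. The others were Lrrn4, Chst4, Prr15l, Myl7, Bnc1, Nkx2-9, Lrp2, Plet1 and Il18r1. Upk3b, which the gate used, stood at 3455 CPM in the control members, 2104 in Marfan and 2638 in Klf4-floxed Marfan, with stromal levels of 0.278, 0.738 and 0.447 CPM. Msln, also used, stood at 1795, 984 and 1657 CPM in the same order, against 0.152 to 0.377 CPM. Because the gate defines this contrast, all of it is a description with no test, including genes outside the gate. Of 6851 genes tested, 766 (11.2%) were at least 2-fold higher in the members in both Marfan libraries and 610 (8.9%) were at least 2-fold lower. The balance of directions depended on the scaling: with median-of-ratios scaling, which shifts the median of all genes by -0.25 on the log2 scale, 564 were higher and 714 lower. Leaving out the highest member for each gene in each library, an alternative chosen after seeing the data, gave 616 and 683. Those 2 Marfan libraries decided the ranking because control had fewer than 20 members. In control, 730 of the 766 and 596 of the 610 lay on the same side, and 647 and 510 passed 2-fold there too.

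The list of other mesothelial genes, written with earlier results of these data known, was higher throughout. Of its 15 measured members 15 passed 2-fold and none was lower. The median log2 ratio was 7.97, against 0.18 over all 11066 genes measured. Krt7, a simple-epithelial keratin, stood at 751 CPM in the control members, 547 in Marfan and 698 in Klf4-floxed Marfan and at 0.0536 to 0.202 CPM in stromal cells. Its mean log2 ratio over both Marfan libraries was 12.82. Lrrn4, a leucine-rich repeat membrane protein long used as a mesothelial marker, stood at 789, 415 and 497 CPM (mean log2 ratio 12.47). Muc16, the large tethered mucin known as CA125, stood at 1122, 426 and 795 CPM (12.36). Upk1b, a uroplakin tetraspanin, stood at 598, 671 and 761 CPM (12.03). All 4 were near 0 in stromal cells of every library, so these ratios rest on few stromal UMIs: Krt7 had 8, 8 and 3. In Marfan the log2 ratio of Krt7 was 11.96 with a counting interval from 10.97 to 13.18.

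Detection in single cells also set the members apart. A UMI of Krt19, another simple-epithelial keratin, was found in 100% of control members, 90.8% of Marfan and 97.8% of Klf4-floxed Marfan, whose median depths were 13800, 15891 and 11900 UMIs. In C1q macrophages, which should lack it, it was found in 0.241%, 0.333% and 0.335% of cells, whose median depths were 10718, 10080 and 9051 UMIs. After every cell was thinned to 2000 UMIs, which left out 1 Klf4-floxed member, Krt19 was found in 100%, 61.5% and 88.9% of members and in at most 0.227% of macrophages. Thinned shares of Upk3b were 100%, 92.3% and 93.3% in members against 0.0848% or less in macrophages. The gate used Upk3b, so that contrast was set by the selection. Krt7, outside the gate, had thinned shares of 41.7%, 44.6% and 60.0% in members, with control lowest, and at most 0.0848% in macrophages.

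In the genome Upk3b lies on mm10 chromosome 5, 136038496 to 136046487, on the plus strand, and Msln on chromosome 17, 25748613 to 25754378, on the minus strand. Krt7 lies on chromosome 15, 101411043 to 101430313, Muc16 on chromosome 9, 18495455 to 18674530, and Dcn on chromosome 10, 97479609 to 97518143. All 5 are annotated as protein coding in GENCODE M21, an annotation of the same build.

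**Figure D2:**
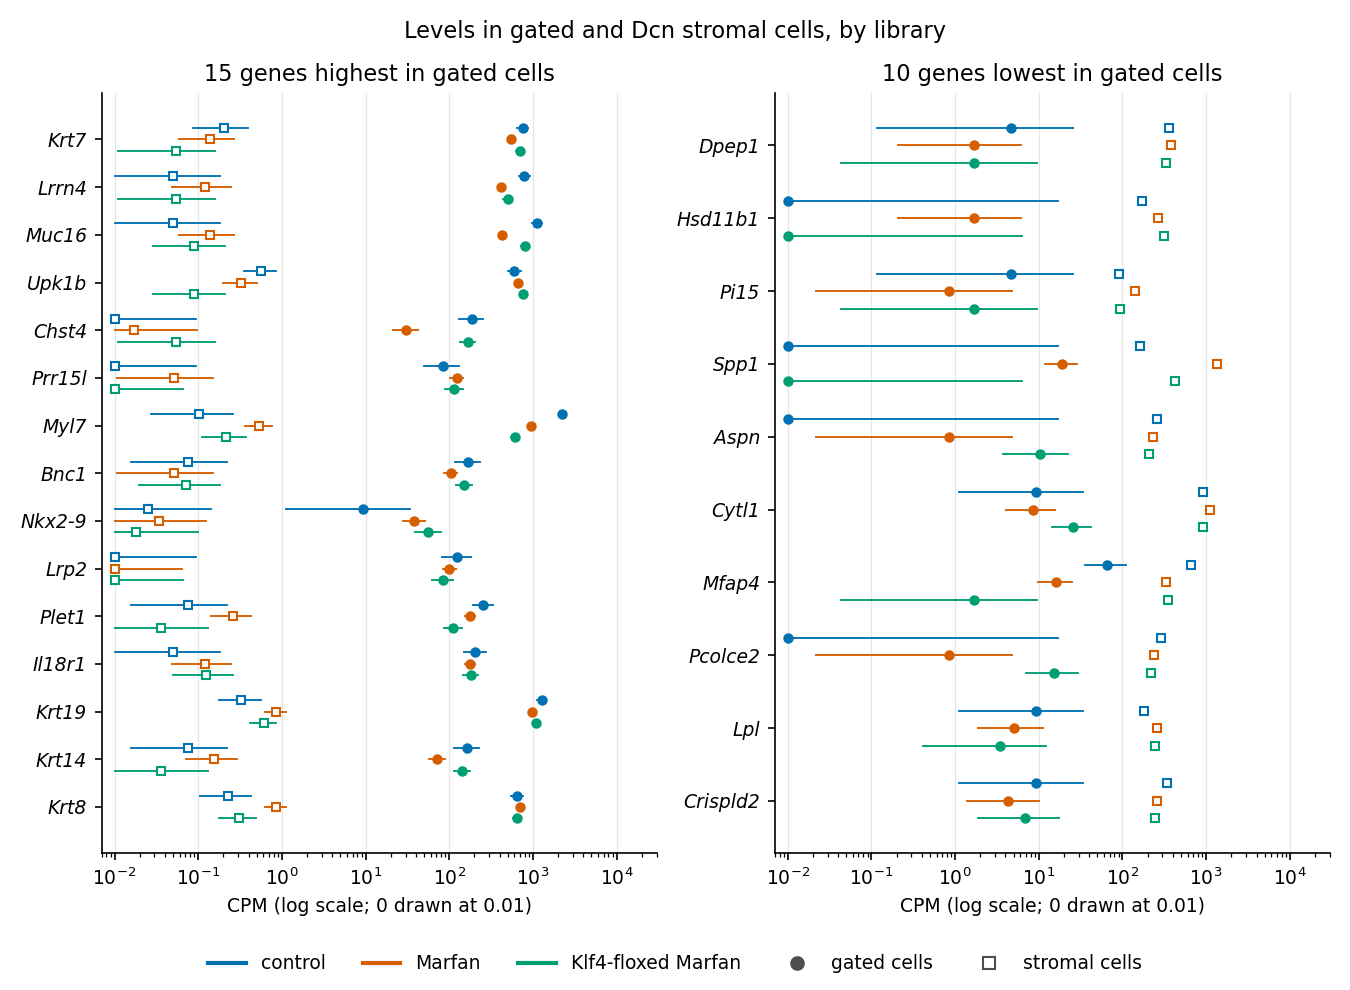
Level in CPM (log axis, bars are exact Poisson 95% intervals) of the 15 genes furthest above and the 10 furthest below stromal cells, in mesothelial-like cells (circles) and stromal cells (squares) of the 3 lineage-negative libraries. The 2 classes do not overlap in any library for these genes, as for Krt7 at 547 to 751 CPM against 0.0536 to 0.202 CPM.

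Epithelial structure was the next broad feature. Of 21 measured genes of keratins and junctions, 15 were higher and 1 was lower, with a median log2 ratio of 6.21. Krt8 stood at 649, 706 and 647 CPM in the control, Marfan and Klf4-floxed Marfan members, with mean log2 ratio 10.38. Krt14, a keratin better known from basal epidermis, stood at 162, 72.3 and 143 CPM and was found in 31.7% of members on average over both Marfan libraries, at depths given above. Cldn15, a pore-forming tight-junction claudin, had a mean log2 ratio of 8.47. The single lower gene was Cdh2, N-cadherin, at 10.6 CPM on average against 41.9 CPM in stromal cells.

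Microvilli and polarity genes were higher in 7 of 15 cases and lower in none (median 1.90). Ezr encodes ezrin, which ties actin to the apical membrane, and stood at 1378, 1030 and 969 CPM against 30.1 to 33.3 CPM in stromal cells. Slc9a3r1, the ezrin-binding scaffold NHERF1, stood at 686, 435 and 390 CPM against 3.75 to 5.16 CPM. Pard6b, a component of the apical polarity complex, stood at 83.5, 51.1 and 57.9 CPM against less than 0.6 CPM. All 3 libraries agreed in these genes to well within the distance from stromal cells.

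Transport of water and ions gave 8 higher and 2 lower genes of 18 (median 3.69). Aqp1, the aquaporin water channel, averaged 727 CPM in the members of both Marfan libraries against 49.2 CPM in stromal cells. Fxyd3, a regulator of the sodium pump, stood at 1141, 601 and 286 CPM and was highest in control. Lrp2 encodes megalin, an endocytic receptor of absorptive epithelia, and stood at 125, 100 and 83.4 CPM. Lrp2 had no UMI in stromal cells of any library, and against the limit of 3 counts per library it was at least 1742-fold higher on the mean over both Marfan libraries. Slc26a3, a chloride-bicarbonate exchanger, stood at 144, 13.6 and 69.8 CPM and likewise had no stromal UMI.

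Transcription factors of the embryonic epicardium were split. Of 17 measured epicardial factors 6 were higher and 3 lower, with a median of 0.34. Wt1, the zinc-finger factor of epicardium and mesothelium, stood at 237, 250 and 278 CPM against 0.43 to 1.66 CPM in stromal cells (mean log2 ratio 7.97). Bnc1, basonuclin 1, stood at 167, 105 and 152 CPM (11.02), and Gata5 at 125, 44.3 and 61.3 CPM (6.14). Tbx18 averaged 89.4 CPM against 14.8 CPM. Tcf21, an epicardial factor kept by cardiac fibroblasts, was lower, at 29.4 against 111 CPM on average, and so was Scx, the tendon factor scleraxis, at 18.6, 5.11 and 5.11 CPM against 64.8 to 81.8 CPM. The factors that were higher thus sat beside others that stromal cells carried more of.

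Myl7, the atrial myosin light chain, stood out among genes of muscle. It was at 2236 CPM in the control members, 940 in Marfan and 608 in Klf4-floxed Marfan, and at 0.101, 0.532 and 0.215 CPM in stromal cells. The 6 cardiomyocyte markers summed to 37.4 CPM at most in the same members, so the Myl7 level was not matched by those markers. Nkx2-9, a homeobox factor, stood at 9.28, 38.3 and 56.2 CPM.

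Signalling genes separated ligand by ligand. Aldh1a2, which makes retinoic acid, stood at 320, 233 and 286 CPM against 3.24 to 4.34 CPM, while Aldh1a3, an enzyme of the same step, and the retinol carrier Rbp4 were lower. Rbp4 stood at 13.9, 11.1 and 8.51 CPM against 416 to 626 CPM. Of 22 Wnt-pathway genes 5 were higher and 5 lower. Rspo1, an R-spondin that potentiates Wnt signals, stood at 580, 481 and 473 CPM against 4.33 to 5.97 CPM, and its relative Rspo3 at 23.2, 0.851 and 10.2 CPM against 116 to 147 CPM. The 2 R-spondins were thus opposite between the classes in every library. Wnt4 stood at 55.7, 91.1 and 81.7 CPM against 4.05 to 6.86 CPM.

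Growth factor and receptor genes were found on both sides. Of 27 genes of the EGF, FGF, PDGF and VEGF families 3 were higher and 9 lower (median -1.28). Fgf9 stood at 83.5, 65.5 and 134 CPM against 4.99 to 7.36 CPM, and Met, the hepatocyte growth factor receptor, at 97.4, 68.9 and 27.3 CPM against less than 0.9 CPM. Pdgfra and Pdgfrb, the PDGF receptors of fibroblasts and mural cells, were lower, with Pdgfra at 4.64, 28.1 and 10.2 CPM against 203 to 282 CPM. Among 31 genes of TGF-β and BMP signalling 2 were higher and 10 lower (median -0.43). The higher ones were the ligands Tgfb2 and Tgfb3, with Tgfb2 at 227 CPM on average against 65.8 CPM. Tgfb1 was among the lower ones, as was Ccn2, a target of TGF-β and YAP, at 23.2, 141 and 74.9 CPM against 979 to 1148 CPM.

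IGF-binding proteins were divided by member. Igfbp5 stood at 17421 CPM in the control members, 3752 in Marfan and 9691 in Klf4-floxed Marfan, against 490 to 632 CPM in stromal cells. Igfbp6 stood at 7259, 3883 and 5844 CPM against 234 to 359 CPM. Igfbp3 and Igfbp7 were lower, with Igfbp7 at 1044, 1475 and 1371 CPM against 4755 to 6089 CPM. These proteins bind insulin-like growth factors in the extracellular space.

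Of 30 fibrillar-matrix genes 15 were lower in the members and 2 higher (median -1.18). Col1a1 stood at 69.6 CPM in the control members, 385 in Marfan and 421 in Klf4-floxed Marfan, against 957, 1206 and 1130 CPM in stromal cells. The 2 higher ones were Fbln2 and Efemp1, a fibulin and a fibulin-like matrix glycoprotein, with Efemp1 at 911 CPM on average against 102 CPM. Col3a1 was not 2-fold apart, at 1281 against 1634 CPM on average. Fbn1, the gene mutated in the Marfan mice, stood at 135, 172 and 126 CPM against 235, 267 and 256 CPM, and its mean log2 ratio of -0.83 did not pass 2-fold.

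The 10 genes furthest below stromal cells stood at 64.9 CPM or less in the members of every library. Dpep1, a dipeptidase, stood at 4.64, 1.70 and 1.70 CPM in the members against 355, 380 and 332 CPM. These levels rested on 1, 2 and 1 UMIs, and in Marfan the log2 ratio was -7.80 with an interval from -10.85 to -5.95. Hsd11b1, which activates glucocorticoids, stood at 0, 1.70 and 0 CPM against 169 to 309 CPM. Spp1, osteopontin, stood at 0, 18.7 and 0 CPM against 161, 1363 and 419 CPM. Aspn, Mfap4 and Pcolce2, 3 matrix-associated proteins, had mean log2 ratios of -6.21, -6.01 and -5.99.

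Chemokine, MHC class II and mesenchymal genes that passed 2-fold were mostly lower, and complement genes lay on both sides. Of 23 chemokines and cytokines 7 were lower and 1 higher (median -3.01), and Cxcl12 stood at 18.6, 14.5 and 10.2 CPM against 434 to 528 CPM. The higher gene was Il18, whose receptor gene Il18r1 was also higher, at 204, 178 and 180.5 CPM against 0.0506 to 0.125 CPM. Of 7 MHC class II genes 6 were lower and none higher (median -3.06). Complement and innate genes gave 4 higher (C3, C2, Slpi and Wfdc2) and 3 lower of 17. C2 stood at 399, 242 and 288 CPM against 10.8 to 26.6 CPM. Of 19 genes tied to epithelial-mesenchymal transition 12 were lower and 1 was higher (median -1.96). The higher one was Fn1, fibronectin, and it was so in the 2 Marfan libraries alone: it stood at 23.2, 808 and 429 CPM in the members of control, Marfan and Klf4-floxed Marfan, against 192, 264 and 182 CPM in stromal cells.

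The medians of the Krüppel-like factor and oxidative phosphorylation lists lay on either side of the 0.18 of all genes measured. None of 10 Krüppel-like factor genes met the cutoffs of 2-fold and 20 CPM in both Marfan libraries (median -0.19). None of 16 oxidative phosphorylation genes did (median 0.37). Over all genes tested only 11.2% were higher and 8.9% lower, so counts of 0 in such short lists say little. Klf5 was above stromal cells all the same, with a log2 ratio between 2.02 and 2.67 over the alternatives. Klf4 stood at 575 CPM in the control members, 220 in Marfan and 375 in Klf4-floxed Marfan, against 260, 263 and 352 CPM in stromal cells. Klf4 was thus not at its lowest in the library labelled Klf4-floxed, in either class. The counts come from 3' ends and the labels used here do not say which exons were flanked, so they do not check a deletion. The immediate-early and heat-shock list did differ: of 21 genes 8 were lower and 1, Hspb1, was higher (median -0.81).

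**Figure D3:**
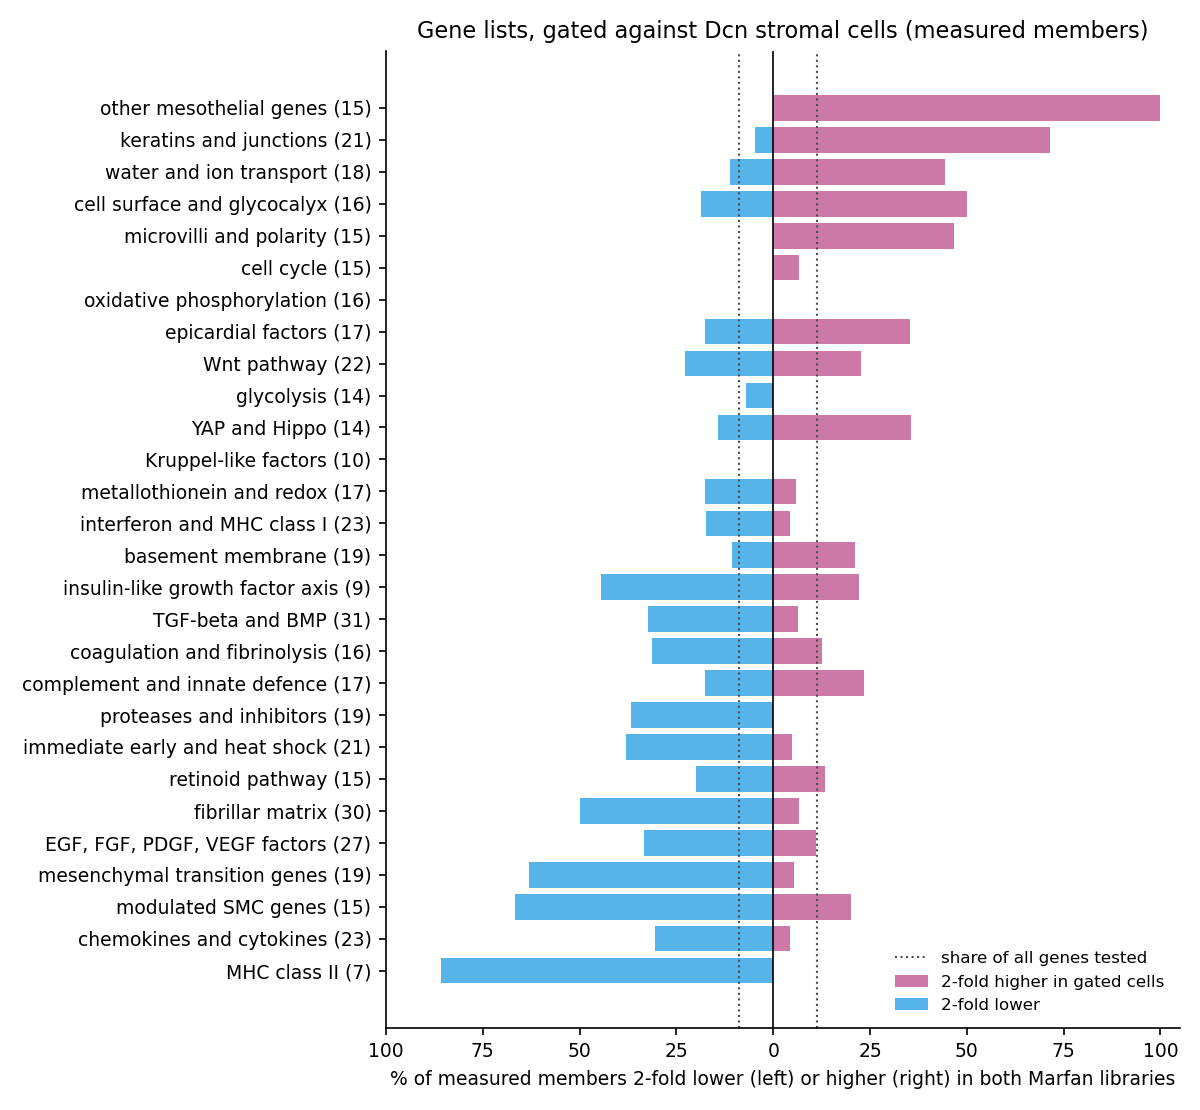
Percent of the measured members of each gene list that were at least 2-fold higher or lower in mesothelial-like than in stromal cells. Dotted lines mark 11.2% and 8.9%, the shares among the 6851 genes tested, a smaller set than the 11066 genes measured. The same 766 higher and 610 lower genes are smaller shares of the genes measured, so the lines lie above the shares that match the bars. All 15 of the other mesothelial genes and 15 of 21 keratin and junction genes were higher, and 6 of 7 MHC class II genes and 12 of 19 epithelial-mesenchymal transition genes were lower.

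Mesothelial-like cells differed among themselves along 2 main axes. The first principal component of the 123 cells took 10.6% of the variance and the second 7.2%. They had correlations of -0.08 and -0.04 with the logarithm of UMIs per cell over the 123 cells, which share 3 libraries. At 1 end of the first lay Fabp5, a fatty-acid binding protein, the glypican Gpc3, complement C3 and Aqp1. At the other lay Lgals7, galectin 7, the cell-cycle inhibitor gene Cdkn1a and the cyclin gene Ccnd1. Scores had medians of 4.10 in control, 3.09 in Marfan and -2.14 in Klf4-floxed Marfan, and their ranges overlapped: -3.76 to 7.59, -11.08 to 9.98 and -11.36 to 7.68.

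Single-cell values show how broad this axis was. C3 had a lowest, median and highest level of 439, 1384 and 4189 CPM in control members, 0, 1815 and 7016 in Marfan, and 0, 578 and 5183 in Klf4-floxed Marfan. Lgals7 had medians of 304, 70.6 and 566 CPM in the same order, with highest cells at 2167, 4898 and 5774 CPM. Cdkn1a had medians of 18.4, 133 and 374 CPM and was without a UMI in the lowest cell of each library. The ranges of all 3 genes overlapped between the libraries.

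The second component placed Myl7, Rarres2 (the chemerin gene) and Muc16 at 1 end and Fn1, the heat-shock genes Hspa1a and Hspa1b, Fos and Jun at the other. Median scores were 6.35 in control, -1.88 in Marfan and 1.65 in Klf4-floxed Marfan. Myl7 had a UMI in 11 of 12 control members, 37 of 65 Marfan and 31 of 46 Klf4-floxed Marfan. In C1q macrophages the shares were 0.964%, 0.915% and 0.558%. Thinned to 2000 UMIs, 83.3%, 35.4% and 33.3% of members still held a Myl7 UMI, against 0.227% of macrophages or fewer. Its highest cells reached 6997, 5554 and 4750 CPM. In Marfan the median Fn1 level was 180 CPM in the 37 cells with a Myl7 UMI and 932 CPM in the others, whose median depth was 13772 UMIs against 16691. In Klf4-floxed Marfan the corresponding medians were 0 and 431 CPM. Myl7 and Fn1 did occur together, in 27 Marfan, 15 Klf4-floxed Marfan and 2 control cells.

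**Figure D4:**
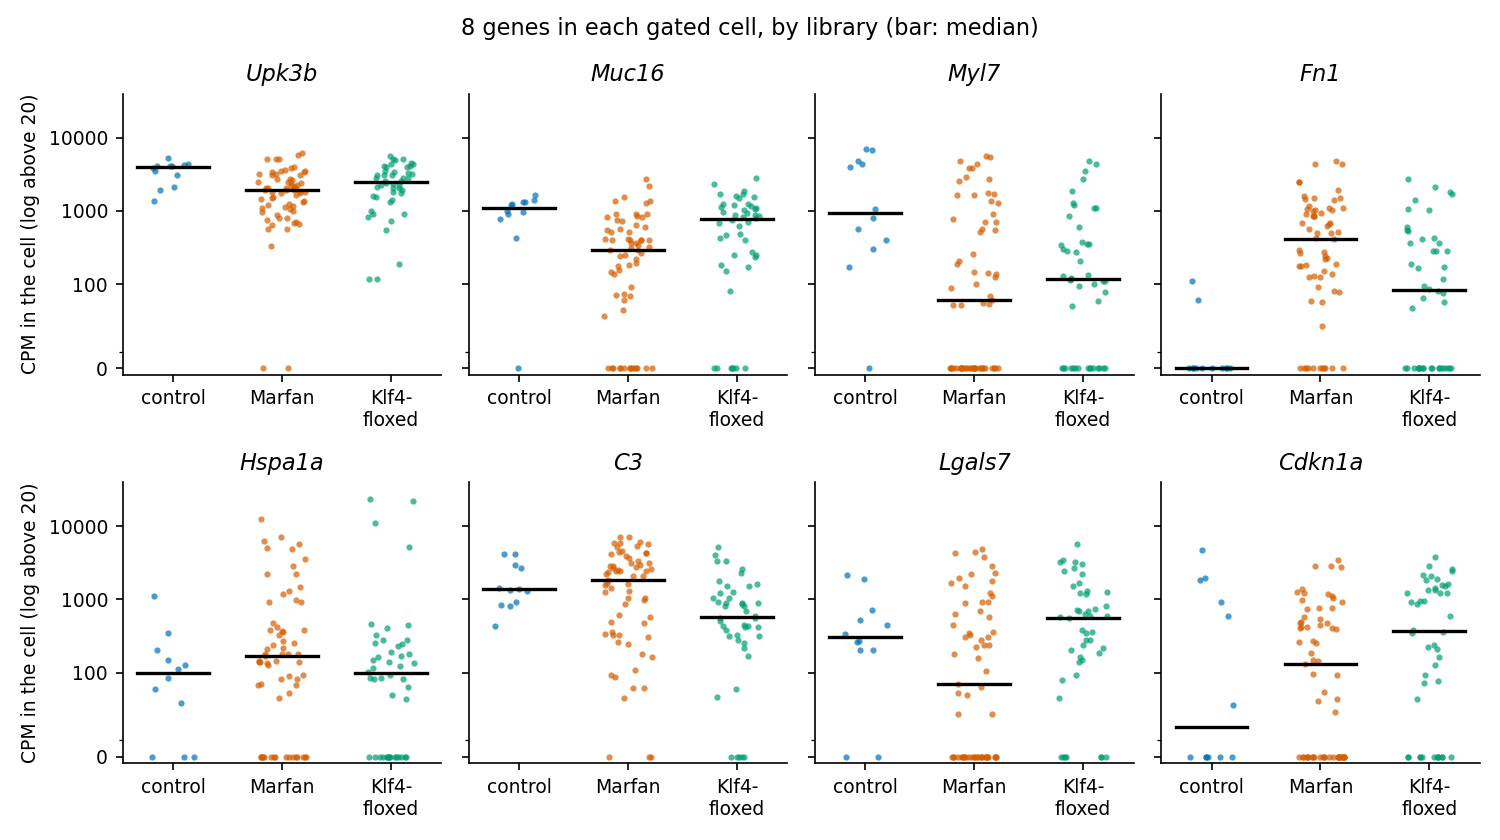
Level in CPM of 8 genes in each mesothelial-like cell of the 3 lineage-negative libraries, with bars at the medians. Upk3b is present in nearly every cell, while Myl7, Lgals7 and Cdkn1a run from 0 to over 2000 CPM within each library. The median of Fn1 is 0 in control, 417 in Marfan and 84.2 in Klf4-floxed Marfan.

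Proliferation was rare. Mki67, a marker of cycling cells, had a UMI in 0 of 12 control, 1 of 65 Marfan and 1 of 46 Klf4-floxed Marfan members. All 49 UMIs of the Klf4-floxed library came from that 1 cell, which also held 45 of the 47 UMIs of Top2a, the replication topoisomerase.

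The members of Marfan and control differed in fibronectin and in immediate-early and heat-shock genes. Of 6994 genes tested 712 (10.2%) were at least 2-fold higher in Marfan and 484 (6.92%) lower. In stromal cells of the same libraries, where counts are far larger, 85 of 6383 genes (1.33%) were higher and 15 (0.235%) lower. The control side rested on 12 cells and 215607 UMIs, so many ratios rest on 1 or 2 control UMIs. When all members were thinned to 2000 UMIs, 199 genes were higher and 106 lower. When the highest cell of each gene and library was left out, an alternative chosen after seeing the data, 1072 were higher and 248 lower.

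Fn1 stood at 23.2 CPM in control cells, 808 in Marfan and 429 in Klf4-floxed Marfan. The log2 ratio of Marfan over control was 5.12, from 3.89 to 6.75, on 949 and 5 UMIs, while in stromal cells it was 0.46. Fn1 had a UMI in 54 of 65 Marfan and 2 of 12 control members. Thinned shares were 8.33% in control, 50.8% in Marfan and 28.9% in Klf4-floxed Marfan, against 8.76%, 8.82% and 4.31% in C1q macrophages. C1q macrophages carried Fn1 themselves, at 361, 114 and 65.3 CPM in the same order, so they are not a class without it. The control share of members rested on 12 cells. It was close to the macrophage share, but the control members' level of 23.2 CPM was below that of control macrophages. Both Marfan shares of members were above the macrophage shares. In the ungated cells of the same cluster, described last, Fn1 stood at 1211, 1392 and 1266 CPM in control, Marfan and Klf4-floxed Marfan, above the members of every library and not low in control. Over the alternatives the members' log2 ratio stayed between 4.02 and 5.97.

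Other genes higher in Marfan members rested on 1 or 2 control UMIs. Alcam, a cell adhesion molecule, had 206 UMIs in Marfan against 1 in control, a log2 ratio of 5.24 from 2.75 to 10.55, and stood at 56.2 CPM in Klf4-floxed Marfan. Pappa, a protease of IGF-binding proteins, had 116 against 1, with a log2 ratio of 4.41. Mest, an imprinted gene, had 171 against 2 (3.97). Osmr, the oncostatin M receptor, had 81 against 1 (3.89). After thinning the log2 ratios were 2.47 for Alcam and 1.26 for Pappa, so these sizes depended on depth. Mest had 2 control UMIs before thinning, and its thinned value of 0.07 rests on the limit of 3 counts for control. That value is a lower bound and not an estimate of the ratio. The log2 ratio of Osmr ran from 2.08 to 4.44 over the alternatives.

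Immediate-early and heat-shock genes were higher in 11 of 21 cases and lower in none, with a median log2 ratio of 1.18. Over all 10591 genes measured the median was -0.01, and in stromal cells none of the 21 passed 2-fold (median 0.14). These genes answer acute stimuli and also cell dissociation. Fos, an AP-1 component, stood at 134 CPM in control cells, 575 in Marfan and 301 in Klf4-floxed Marfan, with a log2 ratio of 2.10 from 1.56 to 2.69 for Marfan over control. Junb stood at 69.6, 346 and 209 CPM (2.32, from 1.58 to 3.17). Hspa1a, the inducible HSP70, stood at 269, 968 and 1516 CPM (1.85, from 1.47 to 2.25), while in stromal cells its ratio was 0.00. Its single-cell medians were 99.4, 170 and 98.0 CPM, with highest cells at 1124, 12332 and 23753 CPM, and 1 Klf4-floxed cell held 524 of the 890 UMIs of that library. The part of dissociation in these values was not tested.

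The list tied to epithelial-mesenchymal transition had 7 of 19 genes higher and 2 lower in Marfan members (median 0.84). The higher genes were Zeb2, a repressor of epithelial genes, Fn1, S100a4, Acta2, Tagln, Tpm2 and Myl9, the last 4 of which encode proteins of the contractile apparatus. Acta2 stood at 37.1, 253 and 249 CPM in control cells, Marfan and Klf4-floxed Marfan (log2 ratio 2.77, from 1.77 to 3.99). SMC markers as a whole summed to 162, 566 and 375 CPM in the members, with Myh11, the SMC myosin, at 0 in both Marfan libraries. Without the members that passed the Acta2 cutoff, an alternative chosen after seeing the data, the median of the list was 0.14. That removal took 12 Marfan and 0 control members by a gene of this list, so it lowers the list in part by construction. With all members thinned to 2000 UMIs the median was 0.27. For S100a4, 130 of 246 Marfan UMIs came from 1 cell. Of the basement-membrane list 6 of 19 genes were higher and 1 lower, among them Col18a1 at 18.6, 117 and 174 CPM (log2 ratio 2.66, from 1.27 to 4.56).

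Genes lower in Marfan members included ion transport genes and secreted factors, and 4 of 18 genes of the transport list were lower and 2 higher (median -0.79). Slc26a3 stood at 144 CPM in control cells, 13.6 in Marfan and 69.8 in Klf4-floxed Marfan, with a log2 ratio of Marfan over control of -3.40, from -4.37 to -2.49. It had no UMI in the stromal cells or C1q macrophages of any library. Clic3, a chloride intracellular channel protein, stood at 445, 62.1 and 129 CPM (-2.84, from -3.30 to -2.39). Gdf2, which encodes the circulating ligand BMP9, stood at 60.3, 6.81 and 11.9 CPM (-3.15), on 13 control and 8 Marfan UMIs. Chrdl1, a BMP antagonist, stood at 260, 39.1 and 52.8 CPM (-2.73). In Calcb, Scin and Nr4a3 single cells weighed heavily: 25 of 38, 11 of 13 and 16 of 19 control UMIs came from 1 cell. Thinning gave -2.44 for Slc26a3 and -4.44 for Chrdl1. Without the highest cell of each library the log2 ratios were -2.04 for Calcb, -0.69 for Scin and -0.70 for Nr4a3.

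Most mesothelial genes were not 2-fold apart between Marfan and control. Of the 15 other mesothelial genes 3 were lower in Marfan and none higher (median -0.46), and these were Muc16, the zinc transporter Slc39a8 and Rarres2. Muc16 stood at 1122, 426 and 795 CPM (-1.40, from -1.62 to -1.17). Rarres2 stood at 6772, 2119 and 4037 CPM (-1.68). The gate genes themselves had log2 ratios of -0.72 for Upk3b and -0.87 for Msln, which are not independent of the selection. Wt1 was not 2-fold apart, with a log2 ratio of 0.08, from -0.35 to 0.54. Igfbp5, at 17421 CPM in control and 3752 in Marfan, had a log2 ratio of -2.22, against -0.37 in stromal cells. Fbn1 had a log2 ratio of 0.35, from -0.21 to 0.97. Klf4 had -1.39, from -1.70 to -1.07, with 41 of its 124 control UMIs in 1 cell, and -0.39 after thinning.

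The comparison of Klf4-floxed Marfan with Marfan uses the same Marfan library, so the 2 comparisons are not independent. Of 7175 genes tested 312 (4.35%) were at least 2-fold higher in Klf4-floxed Marfan members and 259 (3.61%) lower. In stromal cells 9 of 6253 genes (0.144%) were higher and 59 (0.944%) lower. After thinning to 2000 UMIs 88 genes were higher and 145 lower in the members. Without the highest member for each gene in each library 169 were higher and 334 lower.

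Among the genes higher in Klf4-floxed Marfan, several were low in the Marfan library against both others. Chst4, a sulfotransferase that modifies mucin-type glycans, stood at 186 CPM in control cells, 30.6 in Marfan and 167 in Klf4-floxed Marfan. Its log2 ratio of Klf4-floxed over Marfan was 2.45, from 1.88 to 3.04, and stayed between 2.39 and 2.99 over the alternatives. Slc26a3 had 2.36, from 1.49 to 3.29. Sema6a, a transmembrane semaphorin, stood at 64.9, 8.51 and 49.4 CPM (2.54, from 1.46 to 3.74). Arfgef3 stood at 46.4, 2.55 and 35.8 CPM, with a ratio of 3.81 from 2.06 to 6.20 on 21 and 3 UMIs, and 1.85 after thinning. In these 4 genes control and Klf4-floxed members both lay above Marfan members. Pdk2, a kinase that inhibits pyruvate dehydrogenase, had 16 against 4 UMIs (3.00). Dpt, the matrix protein dermatopontin, had 96 of its 109 Klf4-floxed UMIs in 1 cell, and its log2 ratio was 2.07 with that cell and 0.14 when the highest cell of each library was left out.

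Trem2 led the genes lower in Klf4-floxed Marfan members. TREM2 is a lipid-sensing receptor best known from macrophages and microglia. It stood at 232 CPM in control cells, 157 in Marfan and 5.11 in Klf4-floxed Marfan, on 184 Marfan and 3 Klf4-floxed UMIs. The log2 ratio of Klf4-floxed over Marfan was -4.94, from -7.23 to -3.37, and it was -2.47 after thinning. With only 3 Klf4-floxed UMIs before thinning, the thinned value can rest on the limit of 3 counts. It is no measure of a smaller difference. Trem2 had a UMI in 20 of 65 Marfan and 3 of 46 Klf4-floxed members, and in 9 of 421 and 7 of 373 endothelial cells, whose median depths were 7989 and 7611 UMIs. C1q macrophages stood at 259, 304 and 318 CPM and stromal cells at 2.66, 5.13 and 4.24 CPM in control cells, Marfan and Klf4-floxed Marfan. The members' macrophage markers summed to 106 CPM in Marfan and 152 in Klf4-floxed Marfan, and no member passed the C1q gate. The source of the Trem2 RNA in the members was not tested.

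Complement and innate genes were lower in 5 of 16 cases and higher in none, with a median log2 ratio of -0.70. In stromal cells 1 of 14 was lower (median -0.33), and over all 10930 genes measured in the members the median was 0.02. C3, the central complement component, stood at 1549 CPM in control cells, 2057 in Marfan and 954 in Klf4-floxed Marfan (-1.11, from -1.24 to -0.98). C4b stood at 186, 260 and 119 CPM (-1.13, from -1.52 to -0.75), and Slpi, a secreted antiprotease, at 116, 94.5 and 22.1 CPM (-2.09, from -3.05 to -1.26). Lcn2, which binds bacterial siderophores, had 1 UMI against 53 (-4.73, from -10.06 to -2.19), and stromal Lcn2 was also lower (-2.23). After thinning the Lcn2 value in the members was -0.69, but it rests on the limit of 3 counts for Klf4-floxed Marfan. It is an upper bound and no measure of a smaller difference. Lbp, the lipopolysaccharide-binding protein, was the fifth. Of 23 interferon and MHC class I genes 3 were lower, namely Isg15, Irf7 and Bst2, and none was higher.

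Several other list counts in this comparison rested on single cells. Of 17 cell-cycle genes 7 were higher and 1 lower, but the mitotic genes came mostly from the 1 cycling cell described above, and the list median of 0.94 fell to 0.29 without the highest cell for each gene. Mmp3 and Lum, in the protease and matrix lists, had 127 of 131 and 107 of 131 Klf4-floxed UMIs in 1 cell each. The immediate-early and heat-shock median was -0.05, with 1 of 20 genes higher and 2 lower. It was -1.62 when the 8 Klf4-floxed members scored as doublets were removed. It was -1.58 without the members that passed the Acta2 cutoff, an alternative chosen after seeing the data. None of the 15 other mesothelial genes passed 2-fold in either direction (median 0.30), and none of 10 Krüppel-like factor genes did. Over all genes tested only 4.35% were higher and 3.61% lower, so counts of 0 in such short lists say little. Klf4 had a log2 ratio of 0.77, from 0.50 to 1.04, against 0.42 in stromal cells, and 0.39 after thinning. Igfbp5 was higher, at 9691 against 3752 CPM (1.37, from 1.31 to 1.43).

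**Figure D5:**
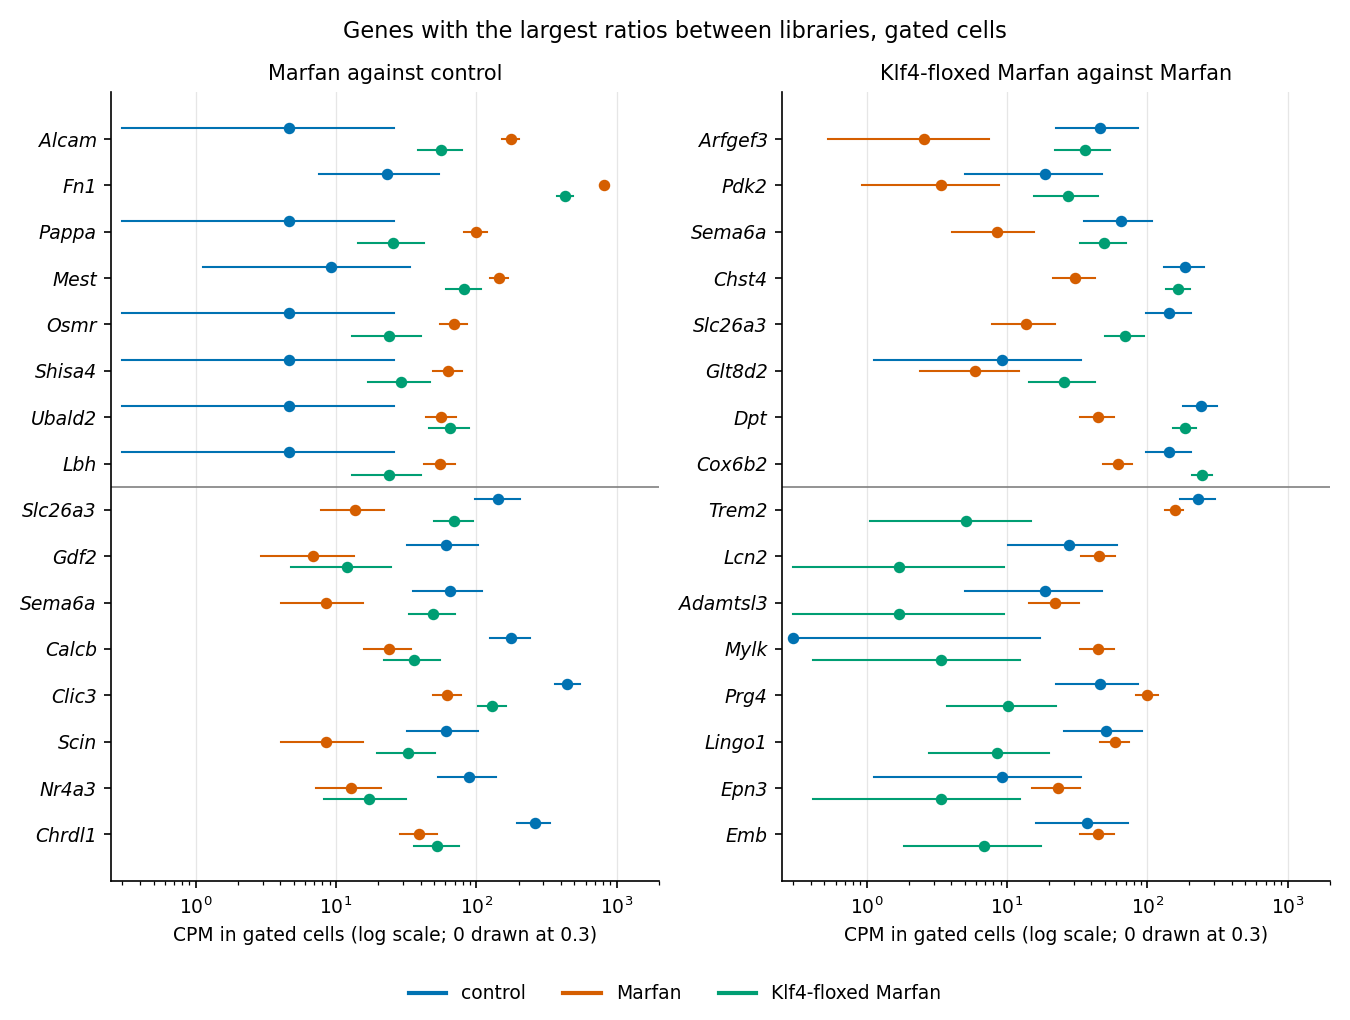
Level in CPM in the mesothelial-like cells of the 3 lineage-negative libraries for the 8 genes furthest above and the 8 furthest below in each genotype comparison. Fn1 is at 23.2 CPM in control against 808 in Marfan and 429 in Klf4-floxed Marfan, Slc26a3 and Chst4 are lowest in Marfan, and Trem2 is lowest in Klf4-floxed Marfan.

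Clustering placed the members beside a set of cells that the gate left out. Of the 123 members 121 fell in 1 of 21 Leiden clusters, which held 215 cells, and its other 94 cells were 9 control, 61 Marfan and 24 Klf4-floxed Marfan cells. These ungated cells shared part of the mesothelial pattern. Wt1 stood in them at 156, 109 and 122 CPM in control cells, Marfan and Klf4-floxed Marfan, against 0.101 to 0.52 CPM in the other stromal cells. Rspo1 stood at 120, 107 and 326 CPM, and Gpm6a, a neuronal-type membrane glycoprotein that members also carry, at 156, 86.0 and 185 CPM. Dcn stood at 14810, 14799 and 15060 CPM, close to the stromal level and above the members' 3182 to 5501 CPM. Fn1 stood above the members in all 3 libraries, as given above. Krt19 stood at 48.0, 40.5 and 29.2 CPM, far below the 987 to 1280 CPM of the members. Since these cells were chosen by clustering on all genes, the values are a description. Klk1, a kallikrein, had 1415 UMIs in the Marfan cells of this set and none in the other libraries' cells of the set.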

How the data were processed

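Single-cell 3' RNA was captured from sorted aortic root cells. The authors deposited raw UMI counts per gene and barcode, with no normalization. The matrices name Cell Ranger 6.1.2, per the file headers, and the submitters' processing notes give mm10 as the build. Which annotation release was used is not given in the sources used here. Counts were summed per library and class and scaled to CPM (numpy 2.4.6, pandas 2.3.3). Exact Poisson, Clopper-Pearson and conditional binomial 95% intervals came from scipy 1.17.1. A difference counted when it reached 2-fold, with at least 20 CPM in the higher class or library and, between libraries, 20 UMIs in all. List members needed 5 CPM. A class at 0 took a floor of 3 counts per library.

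Named genes against stromal cells were the 15 highest and 10 lowest ratios found in at least 25% of cells, up to 4 members of each of 28 lists, and the mesothelial markers. Between genotypes they were the 8 highest and 8 lowest, with Klf4, Fbn1, Upk3b and Msln. Genes named from list counts, and genes of the component axes and ungated cells, were picked after their values were seen. Doublets were scored with Scrublet in scanpy 1.11.5 but kept; removal was an alternative. Its automatic threshold marked 1, 70 and 3 cells in the control, Marfan and Klf4-floxed Marfan libraries; for control and Klf4-floxed the top scores (163 and 314 cells) were taken instead. Leiden clusters came from leidenalg 0.10.2. The ratio code was tested on simulated data. Members and lists were chosen with earlier results of these data known.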

Additional observations from a re-analysis of the deposited data

How the results depend on the processing

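Of 23 alternatives, 3 were chosen after seeing the data. Removing every cell that passed another class gate left shares of 0%, 0.0141% and 0.0319% in control, Marfan and Klf4-floxed Marfan, because 120 of 123 members pass the Dcn cutoff, so the comparisons were not run on those cells. Taking whole Leiden clusters gave 0.466%, 1.76% and 1.10%, and the gate on Upk1b, Lrrn4, Krt19 and Nkain4 gave 0.532%, 1.13% and 0.878%. Against stromal cells, no minimum CPM gave 1378 genes higher and 969 lower, median-of-ratios scaling 564 and 714, and leaving out the Marfan library gave 1274 higher. For Marfan over control, thinning to 2000 UMIs gave 199 higher and 106 lower, and leaving out the highest cell of each gene and library (chosen after seeing the data) gave 1072 higher and 248 lower. For Klf4-floxed over Marfan these gave 88 higher and 145 lower, and 169 higher and 334 lower. Dpt in that comparison turned to -0.82 with a gate of 10 UMIs and to -1.10 with a gate of 5 per 10000 UMIs. The cause of each change was not tested unless its construction is given. With 12 control members, depth limits genes near 20 CPM most. No paired analysis was possible because each group is 1 library and the labels carry no replicate numbers.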
